A study of Mus musculus with 12 samples.

Results

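Complement components and complement regulators were followed through RNA-seq of 3 pancreatic tumor cell lines. The set was fixed by name and holds 9 genes of the 57278 in the count table. They are C3, Cfb, C1s1, C1ra and C4b, which encode components of the cascade, the regulators Serping1, Cd55 and Cd59a, and the receptor C5ar1. All 3 lines, labelled DDKC_9750, DDKC_9790 and DDKC_9804, came from DDKC mice, which develop pancreatic tumors and carry Ptf1a Cre/+ together with a homozygous ubiquitous knockout of Dkk3 (Dkk3-/-). Ptf1a drives Cre in the pancreatic lineage. Each line was sequenced untreated and after rDKK3, the recombinant form of the secreted glycoprotein that the cells lack, with 2 libraries per line and condition and 12 libraries in all. The comparison asked how returning DKK3 from outside changes the RNA of tumor cells without it. No Dkk3 wild-type line is among the samples, so every group shares the knockout and the other alleles of the mice. The labels give neither the dose and duration of rDKK3 for these samples nor the age of the mice, and they do not say whether a line is 1 clone or whether libraries of 1 group came from separate cultures.

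Complement is a cascade of serum proteases and their substrates that marks surfaces for uptake, recruits leukocytes and can open pores in membranes. The classical route starts when C1q activates the proteases C1r and C1s, which cut C4 and C2, while the alternative route uses factor B, and both meet at the cleavage of C3. Host cells are shielded by inhibitors, some secreted, such as C1 inhibitor and clusterin, and some held on the membrane, such as CD55 and CD59. The liver makes most of the circulating proteins, and epithelial cells make several of them locally, C3 and factor B among them, under cytokine stimulation.

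Untreated libraries held 7520741 to 24541083 counts and rDKK3 libraries 3822987 to 11567095. Each line and condition has 1 library with a lower and 1 with a higher library number. With a term for that difference in number fitted, the 2 libraries differed by less than sampling noise (mean deviance over degrees of freedom 0.764, 12979 genes). They were therefore summed and counted as 1 sample, which leaves 6 samples with n = 3 lines per condition. Without that term the same ratio was 6.39, so libraries of 1 group were set apart by that number. Dkk3 had 0 counts in 11 libraries and 1 count in the twelfth, a library of DDKC_9750 with rDKK3. All 7 ductal or epithelial markers were at or above a mean of 1 CPM (counts scaled to library size) and summed to 4054 to 9932 CPM in the 12 libraries. Epcam was the lowest of them, at 2.02 and 2.04 CPM in DDKC_9750 and at 0.410 to 0.945 CPM in the other lines. Of 8 leukocyte or macrophage markers, Adgre1, Tyrobp, Lyz2 and Cd3e were at 0 everywhere, and the list summed to 8.30 to 29.9 CPM untreated and 9.05 to 47.1 CPM with rDKK3. Cd68 and Csf1r made up most of these sums, at 2.02 to 38.1 CPM and 5.80 to 10.3 CPM in the 6 samples. Ptprc had at most 3 counts in any sample. In bulk RNA, fewer cells of a kind and less RNA per cell cannot be told apart.

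The complement components differed between lines in both conditions, and between conditions mainly in DDKC_9750. In DDKC_9750 without treatment C3 stood at 234 CPM, and with rDKK3 it stood at 6473 CPM, 27.7 times as much. C1s1, C4b and C1ra were 9.67 to 18.1 times as high with rDKK3 in the same line, and Cfb was 2.97 times as high. In DDKC_9790 and DDKC_9804 these 5 genes had at most 24 counts in any summed sample, and their ratios had wide counting intervals. Of the regulators, Cd55 was counted in every line, Serping1 had at most 2 counts and Cd59a 0 in DDKC_9750 in either condition, and C5ar1 was not counted in any library.

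**Figure D1:**
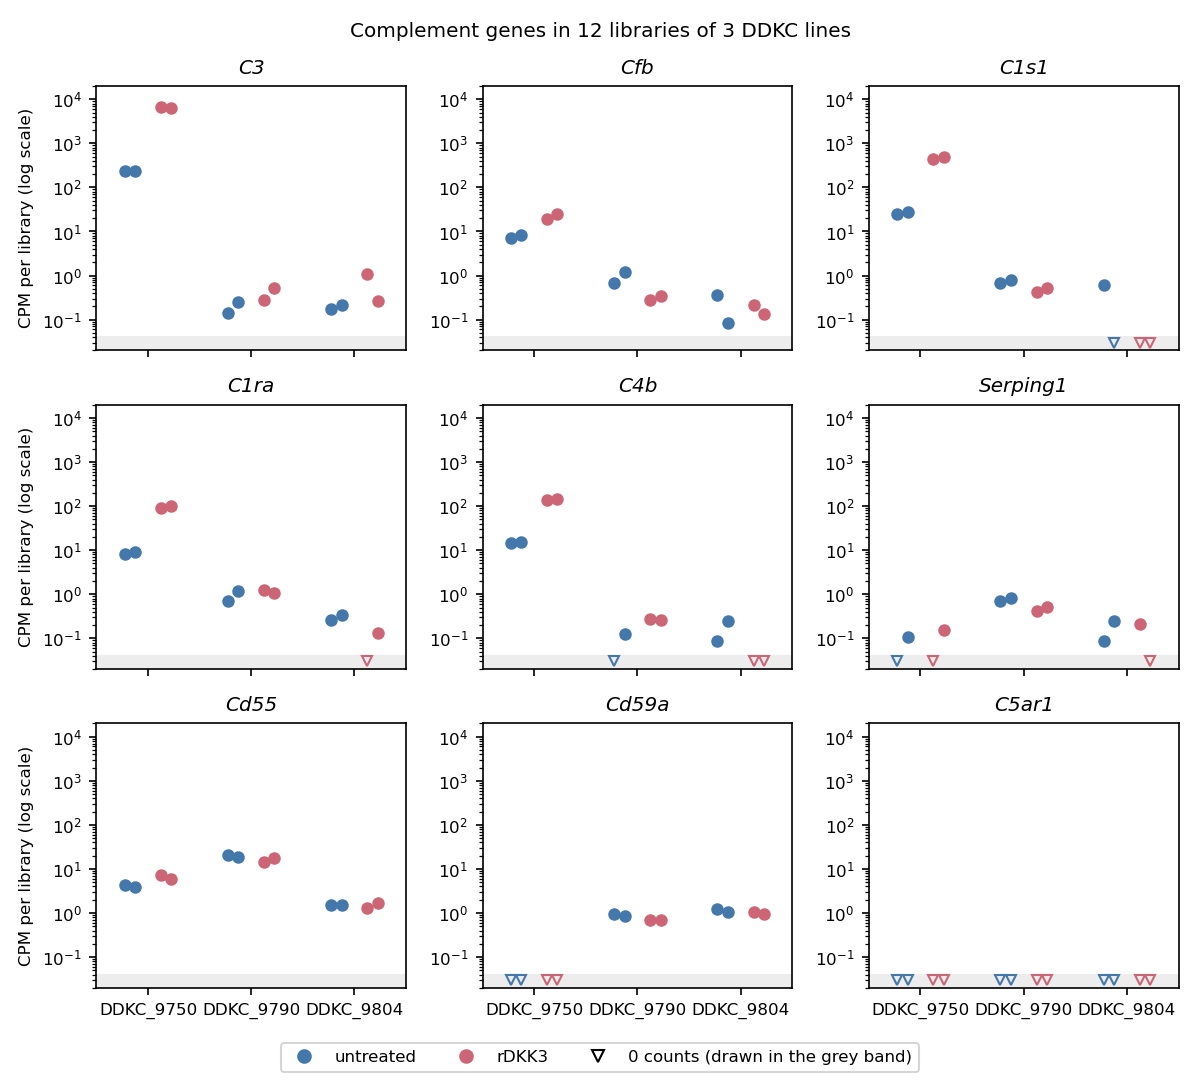
Level of each of the 9 genes in every library, in CPM on a log axis, with the 3 lines along the horizontal axis, untreated libraries in blue and rDKK3 libraries in red. Open triangles in the grey band are libraries with 0 counts. The rDKK3 libraries of DDKC_9750 lie above its untreated ones for C3, Cfb, C1s1, C1ra, C4b and Cd55, and Cd59a has 0 counts in that line.

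C3 encodes the central component, whose cleavage product C3b tags surfaces and feeds the amplification loop. The gene (ENSMUSG00000024164.16) lies at chr17:57510970-57535136 on the minus strand of GRCm39. Its RefSeq promoter entry is shown because C3 carried the largest difference of the set. Of the 250 bases before the RefSeq start, the 231 that lie outside annotated exons, at chr17:57535156-57535386, read as follows on the gene's strand, with a match to the C/EBP letters TTGCNNAA in capitals.
C3: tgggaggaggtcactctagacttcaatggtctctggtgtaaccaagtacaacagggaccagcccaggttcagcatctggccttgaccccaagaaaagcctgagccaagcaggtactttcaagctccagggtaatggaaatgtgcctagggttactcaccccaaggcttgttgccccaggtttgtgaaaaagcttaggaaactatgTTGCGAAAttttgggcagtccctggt
The match TTGCGAAA lies 45 to 38 bases before the RefSeq start. On either strand, these letters occur in 9.56% of the 32851 RefSeq promoters of this length, so the match is a description of the sequence and not a binding site.

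In DDKC_9750 the untreated libraries held 2703 and 4341 C3 counts, or 236 and 235 CPM. The rDKK3 libraries held 26071 and 40703 counts, or 6551 and 6429 CPM. The 2 conditions did not overlap, and both rDKK3 libraries were far above both untreated ones although they were sequenced less deeply. Summed, C3 went from 7044 to 66774 counts, a CPM ratio of 27.7 with a 95% counting interval of 27.0 to 28.4. Such an interval covers counting error only and not the variation between cultures. The share of all counts that fell on C3 was 0.0244% untreated and 0.673% (exact binomial interval 0.668 to 0.679) with rDKK3, and its place in the order of all genes by count moved from 720 to 3.

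C3 was nearly absent from the other lines. Line DDKC_9790 had 5 counts untreated and 8 with rDKK3, a ratio of 2.01 (0.580 to 7.82), and DDKC_9804 had 7 and 7 counts, a ratio of 2.88 (0.862 to 9.62). Neither ratio could be told from 1 at this depth. Of 73845 C3 counts in the 12 libraries, 27 came from the 8 libraries of these lines. Untreated DDKC_9750 stood 1089-fold (466 to 3355) above DDKC_9790 and 1173-fold (569 to 2918) above DDKC_9804, so the difference between lines before treatment was wider than the difference with rDKK3 in any line.

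Over the 3 lines, mean C3 was 78.1 ± 135 CPM untreated and 2158 ± 3737 CPM with rDKK3 (SD, n = 3). With the line as block, edgeR's quasi-likelihood test of the summed counts gave a log2 fold change of 3.98 (SE 0.81) with an unadjusted p of 0.00391 and a Benjamini-Hochberg adjusted p of 0.578. It did not pass the threshold of 0.05. When the 12 libraries were taken as separate samples, the same test gave 4.46 (SE 0.41) with an adjusted p of 0.00013. That p measures the spread between libraries, which may be technical. Without DDKC_9750 the log2 fold change on the summed counts was 1.27.

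C1s1 and C1ra encode the paired proteases of the classical pathway, C1s and C1r. They are neighbours on chromosome 6, C1ra at chr6:124489364-124500402 on the plus strand and C1s1 at chr6:124507304-124519318 on the minus strand, with 6901 bases between them (GRCm39; ENSMUSG00000055172.11 and ENSMUSG00000038521.18). The promoter of C1s1 is given beside that of C3 because both genes were over 10 times as high with rDKK3 in DDKC_9750. C1ra was so too, but 216 of the 250 bases of its window lie in an annotated exon, and it is not printed. The printed C1s1 window belongs to the first of 2 RefSeq starts and holds the 250 bases at chr6:124519319-124519568. A match to the same C/EBP letters, on the other strand, is in capitals.
C1s1: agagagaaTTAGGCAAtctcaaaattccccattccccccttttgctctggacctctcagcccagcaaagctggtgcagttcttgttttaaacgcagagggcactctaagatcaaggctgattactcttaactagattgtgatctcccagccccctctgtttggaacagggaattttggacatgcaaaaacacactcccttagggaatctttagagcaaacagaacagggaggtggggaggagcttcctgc
That match, TTAGGCAA, lies 242 to 235 bases before the start. The NF-kB, GAS and TATA box motifs were also searched on both strands and are not in either window. None of the 4 motifs is in the entries of C1ra, Cd55, Cd59a and C5ar1 or before the second C1s1 start, so the 2 printed windows are those with a match. The NF-kB motif occurs in 3.9% of all RefSeq promoters, the GAS letters TTCNNNGAA in 7.02% and the TATA box, searched as TATAAA, in 12.4%.

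For C1s1, the DDKC_9750 libraries stood at 24.7 and 27.7 CPM untreated and at 447 and 497 CPM with rDKK3. The summed counts were 794 and 4924, a ratio of 18.1 (16.8 to 19.5), with no overlap between conditions. Line DDKC_9790 had 18 and 9 counts, a ratio of 0.629 (0.249 to 1.47), so its direction was not detectable. Line DDKC_9804 had 7 counts untreated, all of them in 1 of its 2 libraries, and 0 with rDKK3, where 3 counts would be the limit that a count of 0 allows. The 2 libraries of a group differed beyond sampling noise for C1s1, with a deviance of 3.39 per degree of freedom against 0.428 to 0.983 for C3, Cfb, C1ra, C4b and Cd55.

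For C1ra, DDKC_9750 stood at 8.21 and 9.15 CPM untreated and at 88.5 and 99.5 CPM with rDKK3. The summed counts of 263 and 982 gave a ratio of 10.9 (9.51 to 12.5), and the 2 conditions were again apart. In DDKC_9790 the counts were 24 and 21, a ratio of 1.10 (0.583 to 2.06), and in DDKC_9804 they were 11 and 1, a ratio of 0.262 (0.00608 to 1.80). Both intervals include 1. The near-identical copies C1rb and C1s2 were also higher relative to depth in DDKC_9750, going from 4 to 27 counts and from 9 to 15 counts, and each had at most 1 count per sample in the other lines. How reads shared between such copies were assigned is uncertain.

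On the summed counts, edgeR's quasi-likelihood test gave a log2 fold change of 2.81 (SE 1.20) for C1s1 and 1.80 (SE 0.94) for C1ra, with Benjamini-Hochberg adjusted p-values of 0.605 and 0.636. Over the 12 libraries the values were 3.66 (SE 0.60) and 2.50 (SE 0.54), with edgeR adjusted p-values of 0.00258 and 0.00966. Without DDKC_9750 both estimates turned negative, to -1.08 for C1s1 and -0.31 for C1ra. The positive estimates for the 2 proteases therefore rest on that line.

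C4b encodes complement C4, which C1s cuts to form the classical C3 convertase together with C2. It lies at chr17:34947354-34962856 on the minus strand (ENSMUSG00000073418.5). Line DDKC_9750 stood at 14.5 and 15.2 CPM untreated and at 134 and 149 CPM with rDKK3. The summed counts of 446 and 1476 gave a ratio of 9.67 (8.69 to 10.8), with no overlap between conditions. Line DDKC_9790 had 2 and 5 counts, a ratio of 3.14 (0.515 to 33.0), and DDKC_9804 had 7 and 0. The log2 fold change was 2.68 (SE 0.76) on the summed counts, with an unadjusted p of 0.0154 and an edgeR adjusted p of 0.578. It was 3.02 (SE 0.34) over the 12 libraries, with an edgeR adjusted p of 0.000421. Without DDKC_9750 the estimate was -0.014. The near-identical copy C4a, 65212 bases away, had 4 to 11 counts in every sample and did not share the difference, although reads common to the 2 copies leave their split uncertain.

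Cfb encodes factor B, the protease of the alternative pathway. The gene (ENSMUSG00000090231.11) lies at chr17:35075350-35081494 on the minus strand, 85 bases from C2 and 112493 bases from C4b. In DDKC_9750 it stood at 6.99 and 8.18 CPM untreated and at 19.1 and 25.1 CPM with rDKK3, from 231 and 235 summed counts, a ratio of 2.97 (2.47 to 3.58). In DDKC_9790 the order was the other way, with 24 counts untreated and 6 with rDKK3, a ratio of 0.314 (0.105 to 0.789). Line DDKC_9804 had 6 and 2 counts, a ratio of 0.960 (0.0947 to 5.37). Cfb thus differed in opposite directions in the 2 lines where a ratio differed from 1 beyond counting error. Its log2 fold change was 0.40 (SE 0.70) on the summed counts with an edgeR adjusted p of 0.877, 0.77 over the 12 libraries with an edgeR adjusted p of 0.258, and -1.21 without DDKC_9750. Its neighbour C2, whose product takes the same place in the classical convertase, had ratios of 1.47, 0.867 and 1.31 in DDKC_9750, DDKC_9790 and DDKC_9804.

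**Figure D2:**
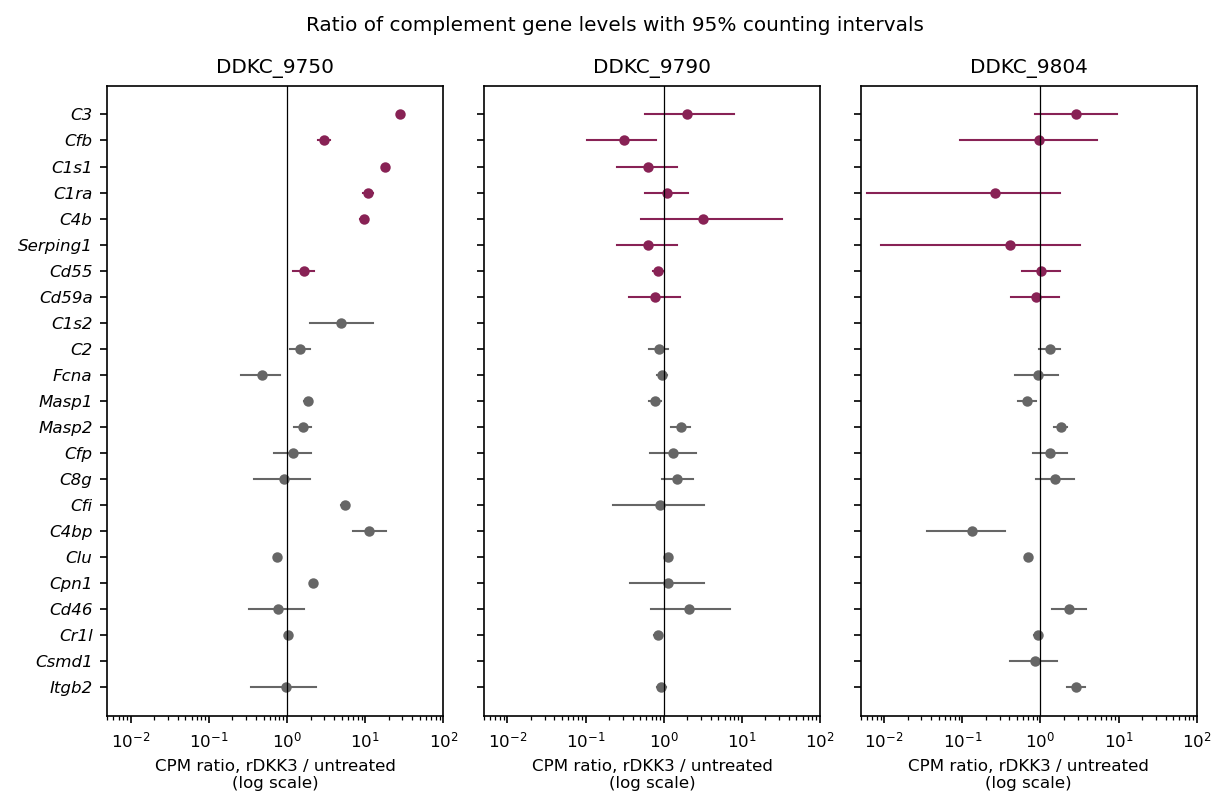
Ratio of CPM with rDKK3 to CPM untreated in each line, on a log axis, with 95% counting intervals as bars. Complement genes of the set are in dark red and the other tested complement genes in grey, and a gene without a ratio in a line has no point. In DDKC_9750 the red points run from 1.64 for Cd55 to 27.7 for C3, while in DDKC_9790 and DDKC_9804 most red bars cross 1.

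Among the regulators, Cd55 was the only one tested. It encodes decay-accelerating factor, a membrane protein that takes apart C3 convertases, and lies at chr1:130366764-130390481 (ENSMUSG00000026399.13). Its order over the lines differed from that of C3, since it was highest in DDKC_9790, at 19.1 CPM untreated and 16.3 CPM with rDKK3. Line DDKC_9750 stood at 3.95 and 6.49 CPM and DDKC_9804 at 1.51 and 1.56 CPM. The ratio was 1.64 (1.20 to 2.24) in DDKC_9750, 0.851 (0.732 to 0.987) in DDKC_9790 and 1.03 (0.577 to 1.77) in DDKC_9804. On the summed counts the log2 fold change was 0.17 (SE 0.26), with an edgeR adjusted p of 0.859, and it turned to -0.14 without DDKC_9750.

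Serping1 encodes C1 inhibitor, the secreted inhibitor of C1r and C1s, and lies at chr2:84595731-84605788 (ENSMUSG00000023224.13). It was below the filter on low counts. Line DDKC_9750, where the genes of both its target proteases were highest, had 2 counts untreated and 1 with rDKK3. Line DDKC_9790 had 18 and 9 counts, a ratio of 0.629 (0.249 to 1.47), and DDKC_9804 had 7 and 1, a ratio of 0.411 (0.00913 to 3.20). No difference was detectable at this depth.

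Cd59a encodes a membrane inhibitor of pore formation and lies at chr2:103926146-103945699 (ENSMUSG00000032679.13). It was also below the filter, with 0 counts in all 4 libraries of DDKC_9750. The other lines had 21 and 13 counts in DDKC_9790, a ratio of 0.778 (0.358 to 1.63), and 39 and 12 counts in DDKC_9804, a ratio of 0.886 (0.422 to 1.73). Against the floor of 3 counts, untreated DDKC_9750 was at least 9.06-fold lower than DDKC_9790 and at least 11.2-fold lower than DDKC_9804. The near-identical copies Cd55b and Cd59b had at most 5 counts in any sample. C5ar1, the receptor of the anaphylatoxin C5a that leukocytes carry, lies at chr7:15980668-15993465 (ENSMUSG00000049130.7) and had 0 counts in all 12 libraries.

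Set against all genes, 6 of the 9 complement genes passed the filter on low counts, 8 had any count, and 15165 genes were tested. On the summed counts edgeR's quasi-likelihood test called 0 of the 6, where it called 0.00659% of all tested genes. At an unadjusted p under 0.05 there were 2, C3 and C4b, both higher with rDKK3, where 3.38% of all genes were higher by that rule, and DESeq2 called 0 as well (0.759% of the genes to which it gave an adjusted p). Taking the 12 libraries as separate samples, edgeR called C3, C1s1, C1ra and C4b higher and 0 lower, where it called 7.97% of all genes higher and 10.2% lower. DESeq2 on the 12 libraries called 1 of these 4, C3, where it called 8.72% of all genes higher, and its estimates were smaller, at a log2 fold change of 2.85 for C3, 1.76 for C4b, 1.05 for C1ra and 0.11 for C1s1. On the summed counts DESeq2 gave 2.49 for C3, 1.09 for C4b, 0.67 for C1ra and -0.094 for C1s1. The median log2 fold change of the 6 genes on the summed counts was 2.24, and over all tested genes it was -0.0054. It is a description only, since C3, Cfb, C1s1 and C4b passed the filter through their counts in DDKC_9750, and Serping1, Cd59a and C5ar1, low or at 0 there, did not pass it.

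The dependence on the line was tested as an interaction of line and treatment over the 12 libraries, which takes libraries as replicates. Where the 2 libraries of a group come from 1 culture, which the labels do not say, its p-values are too small to show that a gene's response depends on the line. All 6 tested genes passed at an adjusted p under 0.05 by edgeR's quasi-likelihood test, where 49.3% of all genes did. The adjusted p was 3.25e-05 for C1ra, 0.000424 for C3, 0.00214 for C1s1, 0.00245 for C4b, 0.00326 for Cfb and 0.00838 for Cd55. DESeq2 gave 0.263 for Cd55. The members' count is therefore given as a description only.

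With the same limit, and line by line, the 95% counting interval of the ratio lay above 1 for 6 of the 6 complement genes with a ratio in DDKC_9750, where it did so for 25.3% of all tested genes with a ratio. It lay above 1 for 0 of 8 in DDKC_9790 (22.8% of all genes) and 0 of 6 in DDKC_9804 (26.4%). It lay below 1 for 2 genes in DDKC_9790, Cfb and Cd55 (23.8% of all genes), and for 0 in DDKC_9750 (25.3%) and DDKC_9804 (32.4%). Among 15165 genes ordered by their log2 difference in DDKC_9750, C3 took place 34, C1s1 54, C1ra 90, C4b 110, Cfb 476 and Cd55 1444. In that line 6.08% of all genes were more than 2-fold higher, and C3, C1s1, C1ra, C4b and Cfb were among them. These shares and places are a description only. C3, Cfb, C1s1 and C4b passed the filter through their counts in DDKC_9750, and Serping1, Cd59a and C5ar1, low or at 0 there, had no ratio.

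**Figure D3:**
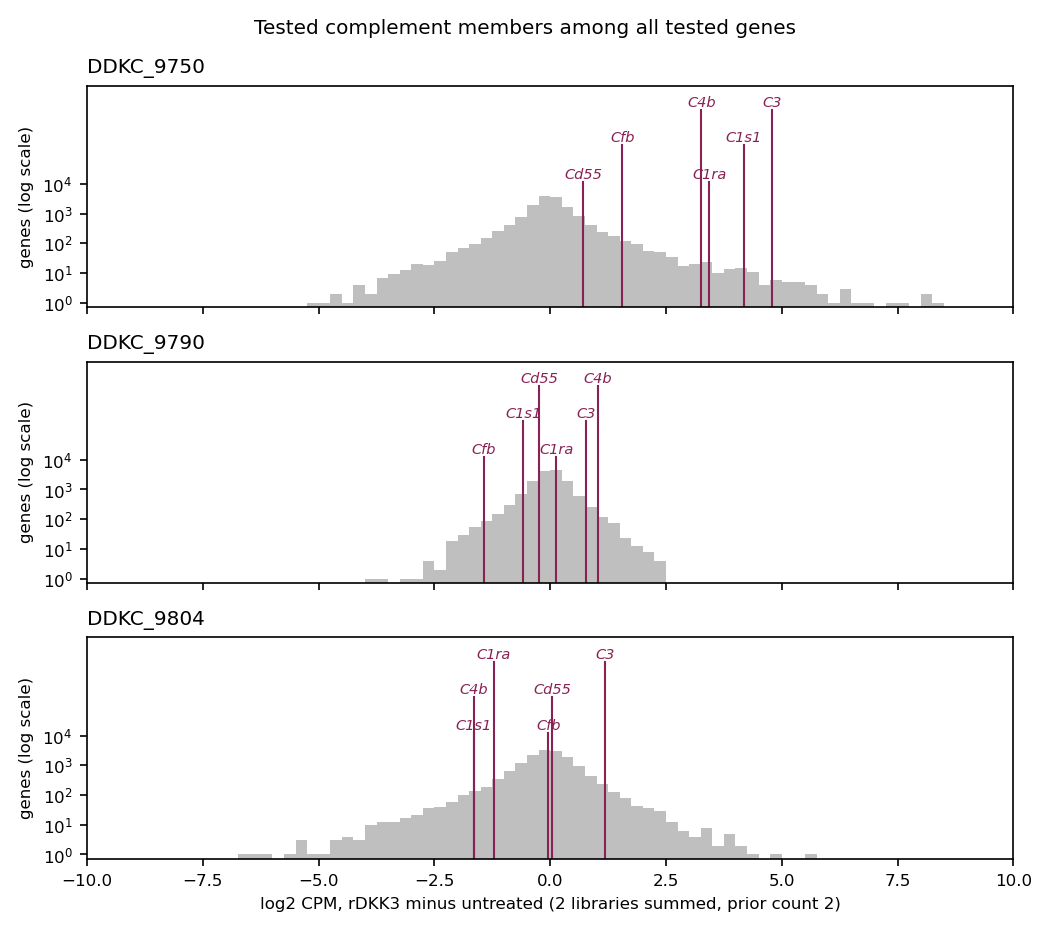
Histograms of the log2 CPM difference, rDKK3 minus untreated, of all 15165 tested genes in each line, with the gene number on a log axis and the 6 tested complement genes marked by lines whose height carries no value. In DDKC_9750 C3, C1s1, C1ra and C4b lie in the upper tail, and in DDKC_9790 and DDKC_9804 the marks spread around 0. The marks of C1s1 and C4b in DDKC_9804 rest on 7 counts against 0 and depend on the prior count of 2. In DDKC_9790 and DDKC_9804 all marks but that of Cd55 rest on at most 24 counts per sample, with C3 at 5 to 8.

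Markers of liver cells, the main source of circulating complement, were highest in the same line. The 4 hepatocyte markers Alb, Apoa1, Ttr and Serpina1a summed to 7.96 CPM untreated and 17.2 CPM with rDKK3 in DDKC_9750, and to 0.270 to 0.484 CPM in the other samples. Alb made up most of it, with 144 and 143 counts or 4.78 and 13.9 CPM, while Apoa1 went the other way, from 1.06 to 0.291 CPM, Ttr stood at 0.631 and 0.775 CPM and Serpina1a at 1.49 and 2.23 CPM. With rDKK3 in DDKC_9750, C3 was at 6473 CPM, and the part of these markers in the C3 result was not tested. The 8 leukocyte or macrophage markers in DDKC_9750 summed to 9.62 CPM untreated and 10.5 CPM with rDKK3. They summed to 29.1 and 46.0 CPM in DDKC_9790, where Cd68 alone stood at 23.2 and 38.1 CPM, and to 10.4 and 17.0 CPM in DDKC_9804. The part of these markers in the results was not tested.

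Per kilobase of exon the levels of different genes can be set side by side. In DDKC_9750, C3 stood at 45.2 CPM per kb untreated and 1251 with rDKK3, second in both conditions among 53 complement genes, after Clu. Of the members, C1s1 came next at 7.92 and 144, then C1ra at 2.93 and 31.9, C4b at 2.62 and 25.4, Cfb at 2.29 and 6.81, and Cd55 at 0.935 and 1.54 CPM per kb. Other complement genes lay between them, Cpn1 among them at 23.8 CPM per kb untreated, above C1s1. The order of these 6 genes was thus the same in both conditions, with C1ra, C4b and Cfb close together untreated. In DDKC_9790 Cd55 led the set with 4.52 and 3.85 CPM per kb, and in DDKC_9804 it led with 0.357 and 0.369. C3 was at 0.111 CPM per kb or below in both of these lines.

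**Figure D4:**
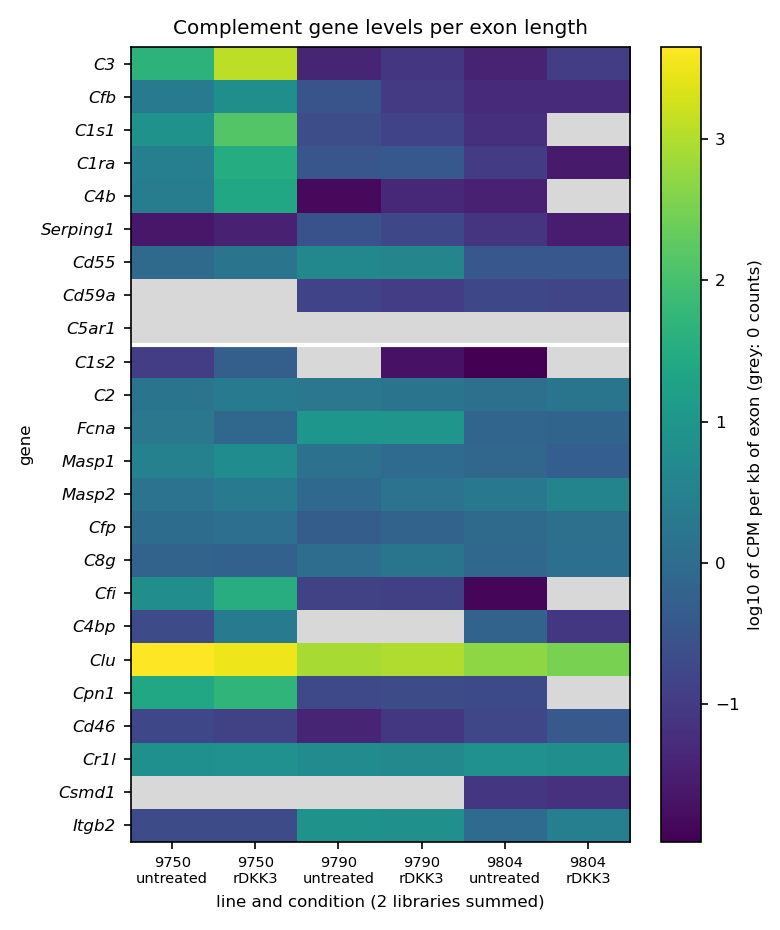
Levels of the 9 complement genes, above the white line, and of the other tested complement genes, below it, in the 6 summed samples. Colour gives log10 of CPM per kb of exon and grey marks 0 counts. C3, C1s1, C1ra and C4b are brightest in DDKC_9750 with rDKK3, and Clu is the brightest gene in every sample.

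A wider list of 44 other complement genes placed these results in the pathway. Of them, 35 had any count and 15 were tested. edgeR's quasi-likelihood test called 0 on the summed counts (0.00659% of all genes), with 2 higher at an unadjusted p under 0.05, Masp2 and Cfi (3.38% of all genes), and DESeq2 called 0 too (0.759%). Over the 12 libraries edgeR called these 2 higher (7.97% of all genes) and 0 lower (10.2%). The interaction with line passed for 7 of the 15, near the 49.3% of all genes. The initiating subunits of the classical pathway that partner C1r and C1s were nearly missing, since C1qa and C1qb had 0 counts and C1qc had 1 count in all libraries together.

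Among the soluble regulators, C4bp, the C4b-binding protein, differed in opposite directions in 2 lines, with 24 and 92 counts in DDKC_9750, a ratio of 11.2 (7.08 to 18.4), 86 and 4 counts in DDKC_9804, a ratio of 0.134 (0.0357 to 0.356), and 0 counts in DDKC_9790. Cfi, the protease that inactivates C3b and C4b, stood at 13.8 and 75.9 CPM in DDKC_9750, a ratio of 5.48 (4.86 to 6.19), and had at most 7 counts in any sample of the other lines.

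Masp2, the lectin pathway protease that cuts C4 and C2, had like ratios in all lines, with every interval above 1. They were 1.60 (1.25 to 2.05) in DDKC_9750, 1.64 (1.23 to 2.19) in DDKC_9790 and 1.83 (1.51 to 2.20) in DDKC_9804. In CPM, Masp2 went from 6.11 to 9.79, from 3.78 to 6.21 and from 8.40 to 15.3, and in each line both rDKK3 libraries were above both untreated ones. edgeR's quasi-likelihood test on the summed counts gave a log2 fold change of 0.76 (SE 0.18) with an unadjusted p of 0.00689 and an adjusted p of 0.578. Over the 12 libraries the edgeR adjusted p was 0.000389. With 3 paired lines the smallest exact two-sided permutation p is 0.25. Masp1, its partner protease, did not share the pattern, with ratios of 1.83, 0.769 and 0.675.

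The abundant secreted inhibitor clusterin (Clu) went from 19835 to 14581 CPM in DDKC_9750, a ratio of 0.735, and had ratios of 1.14 in DDKC_9790 and 0.685 in DDKC_9804. Cr1l, the rodent membrane regulator Crry, lay between 27.9 and 43.9 CPM in all 6 samples. Cpn1, the catalytic chain of the carboxypeptidase that trims anaphylatoxins, went from 48.4 to 103 CPM in DDKC_9750, a ratio of 2.13, and had at most 14 counts in any sample of the other lines. Fcna, the lectin pathway ficolin A, had 99 and 16 counts in DDKC_9750, a ratio of 0.472 (0.260 to 0.805), and ratios of 0.959 and 0.919 in the other lines. Cfp, properdin, which stabilises the alternative convertase, had ratios of 1.20, 1.32 and 1.33, each with an interval that includes 1. Cd46, a membrane cofactor, had a ratio of 2.33 (1.39 to 3.88) in DDKC_9804, 2.10 (0.690 to 7.02) in DDKC_9790 and 0.773 (0.326 to 1.65) in DDKC_9750. Csmd1, a membrane regulator, was counted in DDKC_9804 alone, at 41 and 12 counts. Of the 7 terminal pathway genes 4 had 0 counts in every library, and C8g was the only one tested, with a ratio whose interval includes 1 in every line. Of 8 other receptor genes 7 had at most 10 counts in every sample. Itgb2, the shared integrin chain of complement receptors 3 and 4, was the exception, with 574 and 424 counts in DDKC_9790 and 112 and 111 in DDKC_9804, a ratio of 2.85 in the latter, while Itgam and Itgax, the chains it pairs with, were among the 7.

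The genes whose level followed each complement gene most closely over the 6 samples were named by Pearson's r of log2 CPM among 11320 genes with a mean of at least 5 CPM. For C3 they were Cpne8 (0.998), Osmr (0.997), the oncostatin M receptor chain, and Bcl3 (0.997), an atypical IkB protein. For C1s1 they were Fbxo34 (0.999), Pik3c2b (0.997) and Pawr (0.997), and for C1ra Fbxo34 (0.996), Ephb3 (0.995) and Birc3 (0.994). For C4b they were Ppp1r9b (0.995), Adamts15 (0.994) and Tnip3 (0.994), for Cfb Emc6, Erich1 and Wdr72 (0.993 to 0.994), and for Cd55 Crym (0.998), Emilin2 and Pla2g12a (both 0.996). With 6 samples in 3 lines such values come easily, and 136 to 218 genes had an r above 0.95 with each of these members. They share the libraries and the lines, and are given as a description.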

How the data were processed

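RNA of 3 DDKC tumor cell lines, untreated or treated with rDKK3, was sequenced in 12 libraries. The authors mapped paired 50-base reads on GRCm39 by STAR (2.7.9a in the submitters' processing notes), counted them strand-specifically on GENCODE genes and deposited raw counts per gene, which were used as deposited. The study does not name its model formula.

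Counts of the 2 libraries of each line and condition were summed, because they differed by less than sampling noise after a term for library number series. The labels do not say whether libraries are separate cultures, so p-values over 12 libraries may measure technical spread only. Genes were kept by edgeR's filterByExpr over the 6 groups, which left 15165. The quasi-likelihood test of edgeR 4.0.16 (R 4.3.3) used TMM normalization, the line as block and two-sided Benjamini-Hochberg adjusted p-values over all tested genes, with a threshold of 0.05. Pairing comes from the line named in the labels, and deviations of samples of the same line correlated at 0.834 on average (0.805 to 0.874). CPM used the TMM effective library sizes, and single-line log2 differences a prior count of 2. Ratios within a line carry exact conditional binomial intervals at 95%, which cover counting error only, and have no replicate check. The floor was 3 counts. DESeq2 1.42.0, other filters and normalizations, a library series term, equal depth and leaving out each line or library were alternatives. The test script was tested on simulated data.

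Gene positions are those of the deposited table (GRCm39), exon lengths come from GENCODE M39, and 6 of the 9 genes matched a RefSeq promoter entry (built on GRCm38.p6 and placed in GRCm39 by exact sequence match). Of these, C3 and C1s1 are printed. Cfb, C4b and Serping1 had no entry. Named genes are all 9 members, every tested gene of the wider list, their near-identical copies, Dkk3 and, for each member with a mean of at least 1 CPM, the 3 genes most like it over the 6 samples. A few untested genes of the wider list (C1qa, C1qb, C1qc, Itgam, Itgax) and some genes of the cell type marker lists were named after their values were seen. Also, 1 allele of the mice and 1 gene of the wider list are not reported here. The members, lists and tests were chosen with earlier results of these data known.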

Additional observations from a re-analysis of the deposited data

Results flagged for a closer look

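The interaction of line and treatment passed in edgeR's quasi-likelihood test over the 12 libraries for each of the 6 tested complement genes, which is why they are listed here. That test takes libraries as replicates, and where they come from 1 culture, which the labels do not say, its p-values are too small to show a response that depends on the line. The Benjamini-Hochberg adjusted p was 0.000424 for C3, with ratios of 27.7 in DDKC_9750, 2.01 in DDKC_9790 and 2.88 in DDKC_9804. It was 3.25e-05 for C1ra, with ratios of 10.9, 1.10 and 0.262 in the same order of lines. For C1s1 it was 0.00214 and for C4b 0.00245, both at 0 counts with rDKK3 in DDKC_9804. For Cfb it was 0.00326, with ratios of 2.97 in DDKC_9750 and 0.314 in DDKC_9790. For Cd55 it was 0.00838, with ratios of 1.64, 0.851 and 1.03, and DESeq2 gave 0.263. The same test passed for 49.3% of all genes.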

How the results depend on the processing

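edgeR called 1 gene of 15165 on summed counts with a replicate block by line. That count was 0 with no replicate block, 2749 with the 12 libraries as separate samples, 3125 with a term for the library number series added, 6 with the lower-numbered libraries only, 95 with DESeq2, 90 with no filter on low counts and 0 with at least 10 counts required in every sample. It was 0 to 2 with 1 line and 0 to 1 with 1 library left out. The members called numbered 0 on the summed counts, 4 over the 12 libraries, 4 with the series term and 1 with no filter, which was C3 at an edgeR adjusted p of 0.00458 (range over its alternatives 0.00013 to 1.00). The wider list had 0, 2 and 3 calls on the summed counts, over the 12 libraries and with the series term. Over the 12 libraries the 4 calls fell to 1 with DESeq2, where C1s1, C1ra and C4b were lost, and were 3 to 4 with 1 library left out. The interaction passed for 5 to 6 of the members with 1 library left out.

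Leaving out DDKC_9750 turned Cfb to -1.21, C1s1 to -1.08, C1ra to -0.31, C4b to -0.014 and Cd55 to -0.14. With each line left out in turn the log2 fold change ran from 1.27 to 4.40 for C3, from -1.08 to 3.51 for C1s1, from -0.31 to 2.49 for C1ra, from -0.014 to 3.18 for C4b, from -1.21 to 1.23 for Cfb and from -0.14 to 0.42 for Cd55. C1s1 was also -0.094 with DESeq2 on the summed counts, and Cd55 was -0.0098 with no replicate block and -0.080 at equal depth. The cause was not tested. With 1 library left out, the values ran from 3.94 to 4.23 for C3, 2.71 to 3.36 for C1s1, 1.68 to 2.25 for C1ra, 2.56 to 3.04 for C4b, 0.21 to 0.78 for Cfb and 0.11 to 0.20 for Cd55. With at least 10 counts required in every sample, Cd55 alone of the members had a value. Low counts limit the precision in DDKC_9790 and DDKC_9804, where members other than Cd55 and Cd59a had at most 24 counts per sample.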
